A study of Homo sapiens with 30 samples.

Results

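The 37 genes encoded by human mitochondrial DNA (mtDNA) were taken as all genes whose symbol begins with MT-. They comprised 13 protein-coding genes, 2 rRNA genes and 22 tRNA genes, among 60612 genes in the largest of 3 deposited count tables. All 37 were present in each table, and all 37 passed the filter on low counts in each comparison. RNA-seq had been performed on 5637 cells, a human bladder carcinoma line, in 30 libraries forming 10 groups of 3. The knockout table held the RBPMS-KO groups KO1 and KO2 and the WT groups WT1 and WT2, and the study describes a pair of sgRNAs against RBPMS and a control sgRNA. The overexpression table held Vector, ANKRD10-1 overexpression and ANKRD10-2 overexpression, which are isoforms of ANKRD10. The knockdown table held siNC, a control siRNA, siANKRD10-1 and siANKRD10-2. According to the study's discussion the knockouts were expanded from single clones, so that clone and loss of RBPMS cannot be told apart. Its text places ANKRD10-1 overexpression and ANKRD10-2 knockdown in cells from which RBPMS had been knocked out, whereas the labels name 5637 cells alone, and for these groups the cell background and the treatment cannot be told apart. No label states whether the 3 libraries of a group came from separate cultures, so the tests measure the spread between libraries, which may be technical.

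Human mtDNA is a small circular genome that is transcribed from both strands into long precursors. Most of the protein-coding and rRNA sequences are separated by tRNA sequences, and excision of the tRNAs by RNase P and ELAC2 releases the mRNAs and rRNAs, an arrangement known as tRNA punctuation. The proteins are core subunits of the respiratory chain complexes I, III and IV and of ATP synthase, and every other factor needed for mtDNA replication, transcription, RNA processing and translation is encoded in the nucleus and imported.

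Of the protein-coding genes, 12 lay on the plus strand and MT-ND6, a complex I subunit, lay on the minus strand of chromosome M in GRCh38. Both rRNA genes and 14 tRNA genes lay on the plus strand, and 8 tRNA genes lay on the minus strand. The tRNA genes measured 59 to 75 bases, which is shorter than the fragments the libraries were built from, so a count on a tRNA gene can come from an RNA that also covers its neighbours. Neighbours also shared bases. MT-ATP8 and MT-ATP6, which encode ATP synthase subunits, overlapped by 46 bases at chrM:8527-8572, and MT-ND4L and MT-ND4, which encode complex I subunits, overlapped by 7 bases at chrM:10760-10766. The shared stretches are shown because reads there cannot be assigned to one gene. Capitals mark the shared bases, with 20 bases on either side (GENCODE sequence, GRCh38, plus strand, chrM:8507-8592 and chrM:10740-10786).
MT-ATP8 / MT-ATP6: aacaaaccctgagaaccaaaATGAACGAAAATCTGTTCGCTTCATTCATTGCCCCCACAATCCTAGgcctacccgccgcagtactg
MT-ND4L / MT-ND4: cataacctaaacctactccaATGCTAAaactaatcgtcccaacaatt
The gene lengths of 6 protein-coding genes (MT-ND1, MT-ND2, MT-CO3, MT-ND3, MT-ND4 and MT-CYB) were no multiple of 3. Their last codon is completed by polyadenylation after cleavage, whereas the other 7 carry the whole stop codon in the DNA. In MT-ATP6, however, the last base of that codon is also the first base of MT-CO3 (chrM:9207).

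Total counts per library ranged from 28511029 to 69723937. The mtDNA genes held 6.05% to 13.8% of them, with 95% Wilson intervals no wider than 0.0118 percentage points on either side, which cover counting error only. RBPMS was lower in both knockouts, with a log2 fold change of -1.44 ± 0.07 (SE, 3 libraries against 3) in KO1 and -1.09 ± 0.06 in KO2, and was not called in the knockdown or overexpression groups, among them siANKRD10-2 (0.03 ± 0.14) and ANKRD10-1 (-0.19 ± 0.13). ANKRD10, counted over all isoforms, changed by 0.67 ± 0.04 in ANKRD10-1, 0.41 ± 0.05 in ANKRD10-2, -0.24 ± 0.06 in siANKRD10-1 and -0.25 ± 0.06 in siANKRD10-2. It was also lower in both knockouts, and by more than with either siRNA, at -1.18 ± 0.05 in KO1 and -0.76 ± 0.04 in KO2. All 10 epithelial and urothelial markers checked had a mean over 1 CPM (counts scaled to the library total) in each table. Their summed level ranged from 5487 to 5816 CPM in siNC, 4592 to 4933 CPM in siANKRD10-1 and 3417 to 3536 CPM in siANKRD10-2, and the part of this difference in the mtDNA results was not tested. Epithelial markers also differed in the overexpression table, at 3024 to 3196 CPM in Vector, 3353 to 3435 CPM in ANKRD10-1 and 3437 to 3851 CPM in ANKRD10-2, and ranged from 3933 to 4445 CPM over the knockout table. Of the lists for other cell types, the 4 leukocyte markers summed to 22.1 to 23.9 CPM in Vector, 16.5 to 17.8 CPM in ANKRD10-1 and 17.5 to 18.6 CPM in ANKRD10-2, and to 12.2 to 14.0 CPM in siNC, 13.6 to 14.8 CPM in siANKRD10-1 and 9.12 to 9.86 CPM in siANKRD10-2. In these tables most of that sum came from CD68, while the defining PTPRC and CD3E held at most 0.414 and 0.130 CPM. In the knockout table the sum was 0.111 to 0.403 CPM in WT1, 0.328 to 0.981 CPM in KO1, 0.0359 to 0.208 CPM in WT2 and 0.957 to 1.59 CPM in KO2, with PTPRC and CD3E at 0. The 6 fibroblast markers, mostly COL1A1, summed to 32.6 to 38.1 CPM in KO1 and 52.65 to 56.3 CPM in WT1, to 49.8 to 52.3 CPM in KO2 and 55.1 to 56.3 CPM in WT2, to 49.2 to 59.7 CPM over the overexpression table and 28.7 to 35.2 CPM over the knockdown table. The 3 endothelial markers summed to no more than 3.06 CPM in any library. The part of these differences in the mtDNA results was not tested either.

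Levels were compared between genes as CPM per kilobase, here scaled to the library total without TMM and averaged over the libraries of a table. Among protein-coding genes of the knockout table, MT-ATP8 was highest, at 11496, and MT-ND6 lowest, at 910, a 12.6-fold range. In the overexpression table the level ran from 16448 for MT-ND4L to 901 for MT-CYB, the cytochrome b of complex III. In the knockdown table it ran from 31599 for MT-CO3, a core subunit of cytochrome c oxidase (complex IV), to 3241 for MT-CYB. MT-ATP8 and MT-ND4L are short, at 207 and 297 bases, and share bases with MT-ATP6 and MT-ND4. Fragments that reach beyond a short gene may raise its value per kilobase, which was not tested. MT-RNR2, the 16S rRNA of the large mitoribosomal subunit, exceeded MT-RNR1, the 12S rRNA of the small subunit, in each table. Per kilobase, the levels of MT-RNR2 and MT-RNR1 were 4851 and 1391 in the knockout table, a 3.49-fold difference. They were 16852 and 138 in the overexpression table, a 122-fold difference, and 8898 and 188 in the knockdown table, a 47.4-fold difference. The tables were made separately from poly(A) libraries, and these levels were not tested between tables. The study's methods and its reporting summary name different sequencing platforms. RNA with poly(A) tails had been captured for these libraries, so a count also depends on how well an RNA was captured. The values for rRNA and tRNA genes, and the differences between MT-RNR2 and MT-RNR1, therefore describe counts. Whether they follow the amounts of these RNAs in the cells was not tested. The tRNA genes spanned a wider range than the protein-coding genes in each table. They ran from 18.3 for MT-TW to 1111 for MT-TS1 in the knockout table and from 78.9 for MT-TF to 6877 for MT-TC in the overexpression table. In the knockdown table they ran from 138 for MT-TF to 3895 for MT-TC. The tRNA genes with most counts were MT-TS1, MT-TY and MT-TL1 in the knockout table, MT-TC, MT-TY and MT-TN in the overexpression table, and MT-TK, MT-TC and MT-TY in the knockdown table.

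The share of each library counted on mtDNA genes separated some treated groups from their controls. In siANKRD10-2 it was 8.92%, 9.74% and 10.5%, against 12.0%, 12.5% and 13.8% in siNC and 13.0%, 11.9% and 12.6% in siANKRD10-1. All 3 siANKRD10-2 libraries lay below the other 6. The mean fell by 3.02 percentage points relative to siNC, to 9.73% ± 0.812 (SD, n = 3) from 12.8% ± 0.937. In KO2 the share was 6.05%, 6.33% and 6.71%, below all WT2 libraries at 7.84%, 7.54% and 7.38%. In KO1 it was 6.94%, 6.97% and 7.51%, and this range overlapped that of WT1 at 7.35%, 7.50% and 7.94%. In ANKRD10-2 it was 7.59%, 7.75% and 7.67%, below all Vector libraries at 8.66%, 8.47% and 8.50%, whereas ANKRD10-1, at 8.68%, 8.41% and 7.39%, overlapped Vector. The 3rd ANKRD10-1 library lay below all ANKRD10-2 libraries while the other 2 lay above them. With 3 libraries against 3, the exact two-sided permutation test cannot give a p below 0.1, and it gave 0.1 for KO2, ANKRD10-2 and siANKRD10-2 and 0.3 for KO1. After Benjamini-Hochberg adjustment over the 18 such tests of shares and ratios the smallest adjusted p was 0.225. With both knockouts tested together, exchanging libraries only within each knockout and its own controls, the share was lower by 0.842 percentage points (exact permutation p = 0.015, adjusted p = 0.015 over 2 tests, smallest possible 0.005). Annotated nuclear copies of mtDNA, with which reads can be shared, held group means of 0.0996% to 0.588% of a library. Their mean was lower in siANKRD10-2, at 0.402%, than in siNC, at 0.588%.

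**Figure D1:**
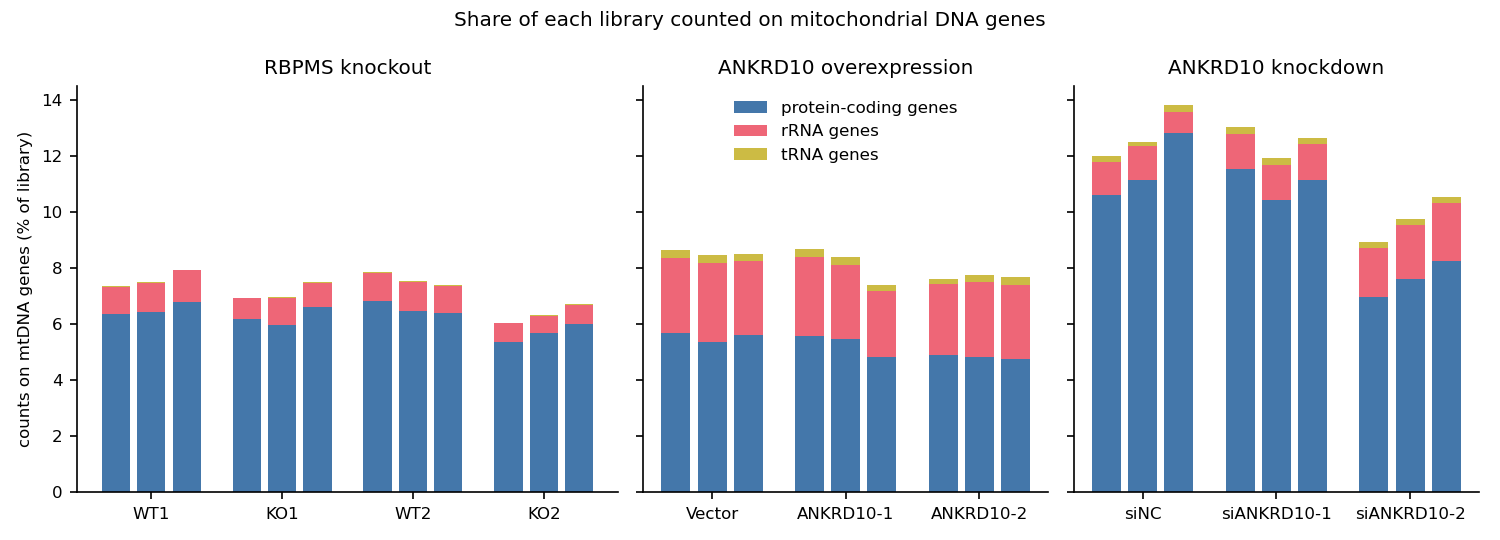
Each bar is 1 library, and its height gives the counts on mtDNA genes as a percentage of the library's counts, divided into protein-coding, rRNA and tRNA genes; panels are the 3 tables, and libraries stand in replicate order within each group. The 3 siANKRD10-2 bars end between 8.92% and 10.5% with a larger rRNA part, and the KO2 bars end between 6.05% and 6.71%.

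The composition of these counts shifted as well. The rRNA genes took 19.5%, 19.6% and 19.6% of the mtDNA counts in siANKRD10-2, against 9.73%, 9.57% and 5.68% in siNC and 9.57%, 10.7% and 10.1% in siANKRD10-1. The 3rd siNC library stood apart from the other 2, with the lowest rRNA part and the highest mtDNA share of the table. The ratio of rRNA to mRNA counts was 2.79-fold higher in siANKRD10-2 than in siNC (log2 difference 1.48, exact two-sided permutation p = 0.1, the smallest possible), and the log2 difference was 1.20 without the 3rd siNC library. In KO2 the rRNA genes took 10.98%, 10.03% and 10.09% of the mtDNA counts, below all WT2 libraries at 12.4%, 14.1% and 13.2%. In KO1 they took 10.5%, 13.8% and 11.4%, overlapping the 13.2%, 13.9% and 14.2% of WT1. Over both knockouts the ratio was 0.799 of that in the controls (log2 difference -0.32, exact permutation p = 0.01, adjusted p = 0.015 over 2 tests). In the overexpression table the rRNA part was larger, from 30.9% to 34.6%, and the ratio in ANKRD10-2 overlapped that in Vector. The tRNA genes took 0.377% of the mtDNA counts in KO1 and 0.410% in WT1 on average, with overlapping groups, and 0.438% in KO2 and 0.385% in WT2, without overlap. They took 3.04% to 3.30% in the overexpression groups, 1.57% in siNC, 1.78% in siANKRD10-1 and 2.32% in siANKRD10-2.

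**Figure D2:**
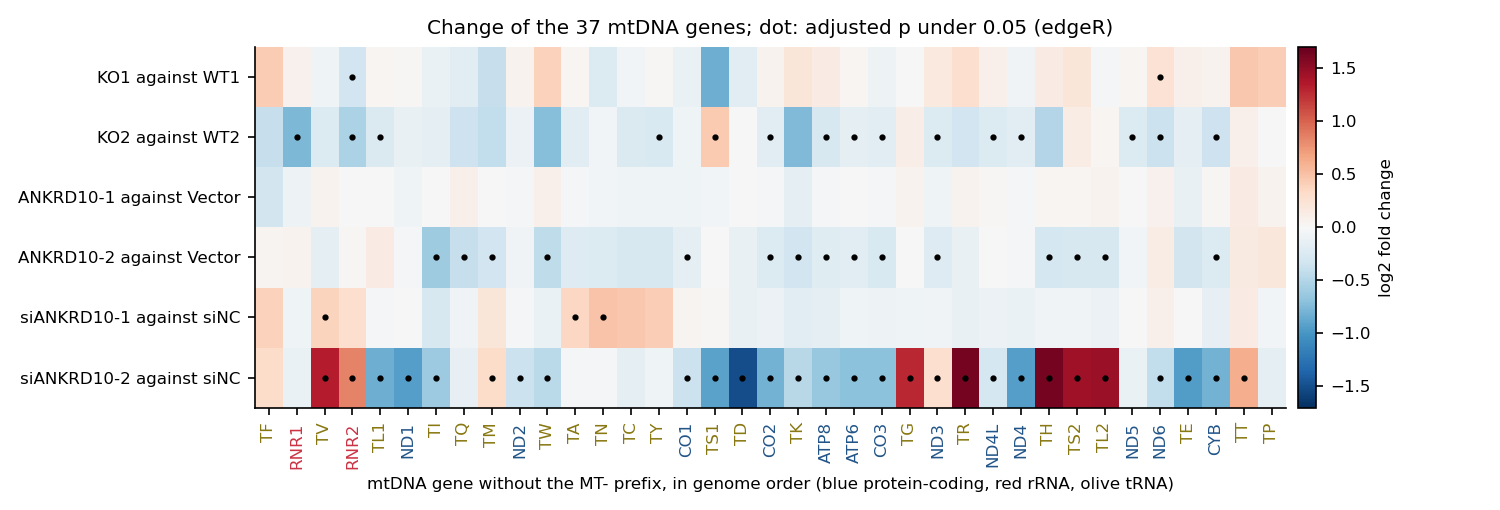
The colour of each cell gives the log2 fold change of 1 of the 37 mtDNA genes (columns, in genome order) in 1 comparison of a treated with its control group (lines of cells), and a dot marks an adjusted p under the threshold. siANKRD10-2 against siNC had 28 dotted genes in both directions, KO2 and ANKRD10-2 had 15 each, siANKRD10-1 had 3, KO1 had 2 and ANKRD10-1 had none.

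Knockdown with siANKRD10-2 was accompanied by the largest number of mtDNA genes called in a comparison with a control group. By edgeR's quasi-likelihood test with Benjamini-Hochberg adjustment, 28 of 37 genes passed an adjusted p of 0.05, while 36.3% of all genes tested passed. Of these, 18 were lower and 10 were higher, with 18.7% of all genes lower and 17.6% higher. The median log2 fold change was -0.65 over the 13 protein-coding genes and -0.05 over the 22 tRNA genes, and 0.00 over all genes tested. Of the protein-coding genes, 11 fell, MT-ND3 rose and MT-ND5 did not pass. MT-ND4, a complex I subunit, was counted at 13067, 14297 and 17030 CPM in siNC and at 7151, 7714 and 8337 CPM in siANKRD10-2, here and below after TMM scaling within each comparison. The groups did not overlap, and the log2 fold change was -0.94 ± 0.07 (edgeR adjusted p = 2.27e-10). MT-ND1, also of complex I, fell from 9560, 10270 and 13015 CPM to 4924, 5816 and 6489 CPM (log2 fold change -0.93 ± 0.09). MT-CYB fell by 0.81 ± 0.07 on the log2 scale, from 4032, 4335 and 5135 CPM to 2372, 2504 and 2839 CPM. The complex IV subunits fell unequally. MT-CO2 changed by -0.80 ± 0.07, MT-CO3 by -0.70 ± 0.07 and MT-CO1, the catalytic subunit, by -0.37 ± 0.08. The overlapping ATP synthase genes MT-ATP6 and MT-ATP8 changed by -0.69 ± 0.07 and -0.65 ± 0.07. Among the remaining complex I genes, MT-ND6 changed by -0.42 ± 0.08, MT-ND2 by -0.36 ± 0.08 and MT-ND4L by -0.30 ± 0.07. The call of MT-ND2 was lost with DESeq2, while 26 of the 28 calls were kept under every alternative tried. MT-ND5, at 6234, 6962 and 7993 CPM in siNC and 6048, 6498 and 6995 CPM in siANKRD10-2, overlapped between the groups, with a log2 difference of -0.12 ± 0.07 (edgeR adjusted p = 0.211). MT-ND3, which lies between MT-TG and MT-TR, went the other way, from 990, 1075 and 1256 CPM to 1234, 1433 and 1393 CPM (0.29 ± 0.07, edgeR adjusted p = 0.0017), and here the groups overlapped by 1 library.

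The 2 rRNAs differed from each other in the same comparison. MT-RNR2 rose from 11358, 11882 and 7904 CPM in siNC to 16996, 18783 and 20276 CPM in siANKRD10-2. The groups did not overlap (log2 fold change 0.85 ± 0.09, edgeR adjusted p = 8.81e-08), and the change was 0.68 without the 3rd siNC library, which had the low value. MT-RNR1 was at 183, 177 and 203 CPM in siNC and 162, 165 and 194 CPM in siANKRD10-2, with a log2 difference of -0.11 ± 0.06 that did not pass (edgeR adjusted p = 0.183). MT-TV, which lies between MT-RNR1 and MT-RNR2, rose by 1.34 ± 0.09 on the log2 scale, from 57.1, 53.2 and 40.001 CPM to 120.4, 120.0 and 139 CPM.

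Of the 22 tRNA genes, 8 rose and 7 fell in siANKRD10-2, and 7 did not pass. Those named in this paragraph, other than MT-TK, were chosen after their values were seen, as the genes furthest from 0. The 6 with the largest rise were MT-TH, MT-TR, MT-TL2, MT-TS2, MT-TV and MT-TG, the tRNAs for histidine, arginine, leucine (CUN codons), serine (AGY codons), valine and glycine. The largest falls were of MT-TD, the tRNA for aspartate, and MT-TE, the tRNA for glutamate. The 22 tRNA genes together held 2.32% of the mtDNA counts in siANKRD10-2, so most reads lay elsewhere. These sequences are shown because the log2 changes furthest from 0 belonged to such short stretches (GENCODE sequence, GRCh38, each 5′ to 3′ on its own strand, anticodon in capitals).
MT-TV (chrM:1602-1670, plus): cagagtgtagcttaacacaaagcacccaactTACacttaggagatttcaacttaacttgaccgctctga
MT-TG (chrM:9991-10058, plus): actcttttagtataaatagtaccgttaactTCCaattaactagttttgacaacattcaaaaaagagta
MT-TR (chrM:10405-10469, plus): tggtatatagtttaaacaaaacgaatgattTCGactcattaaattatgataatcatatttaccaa
MT-TH (chrM:12138-12206, plus): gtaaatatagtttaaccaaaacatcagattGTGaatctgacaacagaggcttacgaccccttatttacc
MT-TS2 (chrM:12207-12265, plus): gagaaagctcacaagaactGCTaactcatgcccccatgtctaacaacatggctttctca
MT-TL2 (chrM:12266-12336, plus): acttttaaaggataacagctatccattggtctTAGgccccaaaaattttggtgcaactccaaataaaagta
MT-TD (chrM:7518-7585, plus): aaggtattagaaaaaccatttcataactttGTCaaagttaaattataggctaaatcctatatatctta
MT-TE (chrM:14674-14742, minus): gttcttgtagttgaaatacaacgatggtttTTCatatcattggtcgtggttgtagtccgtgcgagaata
MT-TH, MT-TS2 and MT-TL2 follow one another without a gap between MT-ND4 and MT-ND5, and they rose by similar amounts. MT-TH was at 27.4, 35.5 and 28.4 CPM in siNC and 87.9, 92.1 and 101.6 CPM in siANKRD10-2 (log2 fold change 1.63 ± 0.08, edgeR adjusted p = 1.77e-14). MT-TS2 rose by 1.45 ± 0.07 and MT-TL2 by 1.46 ± 0.07. The changes from MT-ND4 to MT-ND5 along the plus strand thus ran from -0.94 through 1.63, 1.45 and 1.46 to -0.12. MT-TG and MT-TR flank MT-ND3 in the same way. MT-TG was at 122, 128 and 132 CPM in siNC and 312, 319 and 299 CPM in siANKRD10-2 (1.29 ± 0.05, edgeR adjusted p = 1.72e-15), and MT-TR rose from 61.3, 84.1 and 75.0 CPM to 212, 230 and 237 CPM (1.62 ± 0.08). In genome order from MT-CO3 to MT-ND4L the log2 changes were -0.70, 1.29, 0.29, 1.62 and -0.30. MT-TD, between MT-TS1 and MT-CO2, fell from 42.3, 38.0 and 53.8 CPM to 14.1, 16.9 and 16.2 CPM (-1.51 ± 0.10). MT-TE, which adjoins MT-ND6 on the minus strand and lies between MT-ND6 and MT-CYB, fell from 72.2, 85.9 and 102.1 CPM to 40.9, 50.2 and 43.6 CPM (-0.95 ± 0.09). MT-TK, the lysine tRNA gene with most counts in this table, fell from 284, 302 and 337 CPM to 244, 215 and 205 CPM (-0.47 ± 0.07). For these genes, as for MT-ND1 and MT-ND4, the groups did not overlap. The paper's methods name a stranded library kit, but the strand setting of the counting is not given in the sources used here. RNA from a gene and RNA from the opposite strand therefore cannot be told apart.

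**Figure D3:**
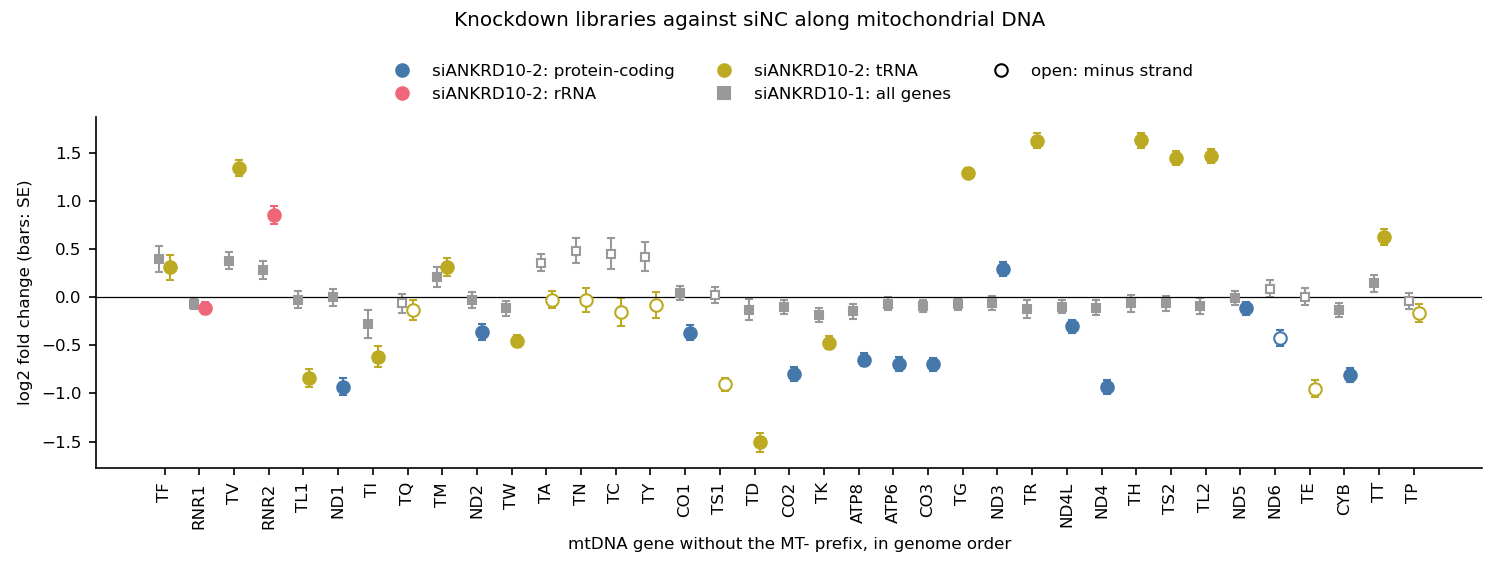
Points give the log2 fold change against siNC, with its SE, of the 37 mtDNA genes in genome order; circles are siANKRD10-2, coloured by kind of gene, grey squares are siANKRD10-1, and open symbols are minus-strand genes. In siANKRD10-2 the tRNA genes MT-TG, MT-TR, MT-TH, MT-TS2 and MT-TL2 lie between 1.29 and 1.63 while the protein-coding genes beside them lie between -0.94 and 0.29.

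In siANKRD10-1 against siNC, 3 of 37 genes passed (8.11%), a share near the 10.6% of all genes that passed. They were the tRNA genes MT-TA, MT-TN and MT-TV, all higher, with 5.08% of all genes higher and 5.52% lower. None of the 3 calls was kept under every alternative tried. No protein-coding or rRNA gene passed, with log2 differences of the protein-coding genes between -0.15 for MT-ATP8 and 0.09 for MT-ND6. MT-RNR2 was at 12306, 12393 and 12743 CPM in siANKRD10-1 and at 11267, 11738 and 7821 CPM in siNC (0.28 ± 0.10, edgeR adjusted p = 0.0755). Without the 3rd siNC library the difference was 0.12, and MT-RNR2 passed under 3 of the 12 alternatives (no filter, the replicate block and all libraries of the table in 1 fit). The 2nd siNC library was low in a block of 4 minus-strand tRNA genes, MT-TA, MT-TN, MT-TC and MT-TY, that includes MT-TA and MT-TN. The plus-strand MT-TV was lowest in the 3rd siNC library, at 56.6, 52.5 and 39.6 CPM in siNC and 64.7, 64.7 and 64.0 CPM in siANKRD10-1. MT-TN, for asparagine, was at 186, 107 and 184 CPM in siNC and 224, 234 and 207 CPM in siANKRD10-1 (0.48 ± 0.13), and MT-TC, for cysteine, at 275, 141 and 289 CPM and 323, 340 and 302 CPM (0.45 ± 0.16, edgeR adjusted p = 0.0756). MT-TY, for tyrosine, was at 245, 130 and 255 CPM in the same siNC libraries and at 285, 295 and 263 CPM in siANKRD10-1, and did not pass (0.42 ± 0.15). In siANKRD10-2 MT-TA, MT-TN, MT-TC and MT-TY did not pass against siNC, whereas MT-TV passed. Tested directly against siANKRD10-1, siANKRD10-2 had 30 members called, 21 lower and 9 higher. Over all genes tested in that comparison 37% passed, 18.8% lower and 18.2% higher. MT-ND4 (-0.82 ± 0.06), MT-ND1 (-0.92 ± 0.08) and MT-CO2 (-0.69 ± 0.06) were lower, and MT-RNR2 (0.57 ± 0.06), MT-TR (1.75 ± 0.07), MT-TH (1.69 ± 0.07), MT-TG (1.37 ± 0.06) and MT-ND3 (0.36 ± 0.06) were higher. ANKRD10 itself did not differ by test between the siRNAs (log2 difference -0.0017 ± 0.06, edgeR adjusted p = 0.985). Comparisons with siNC share the siNC libraries.

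**Figure D4:**
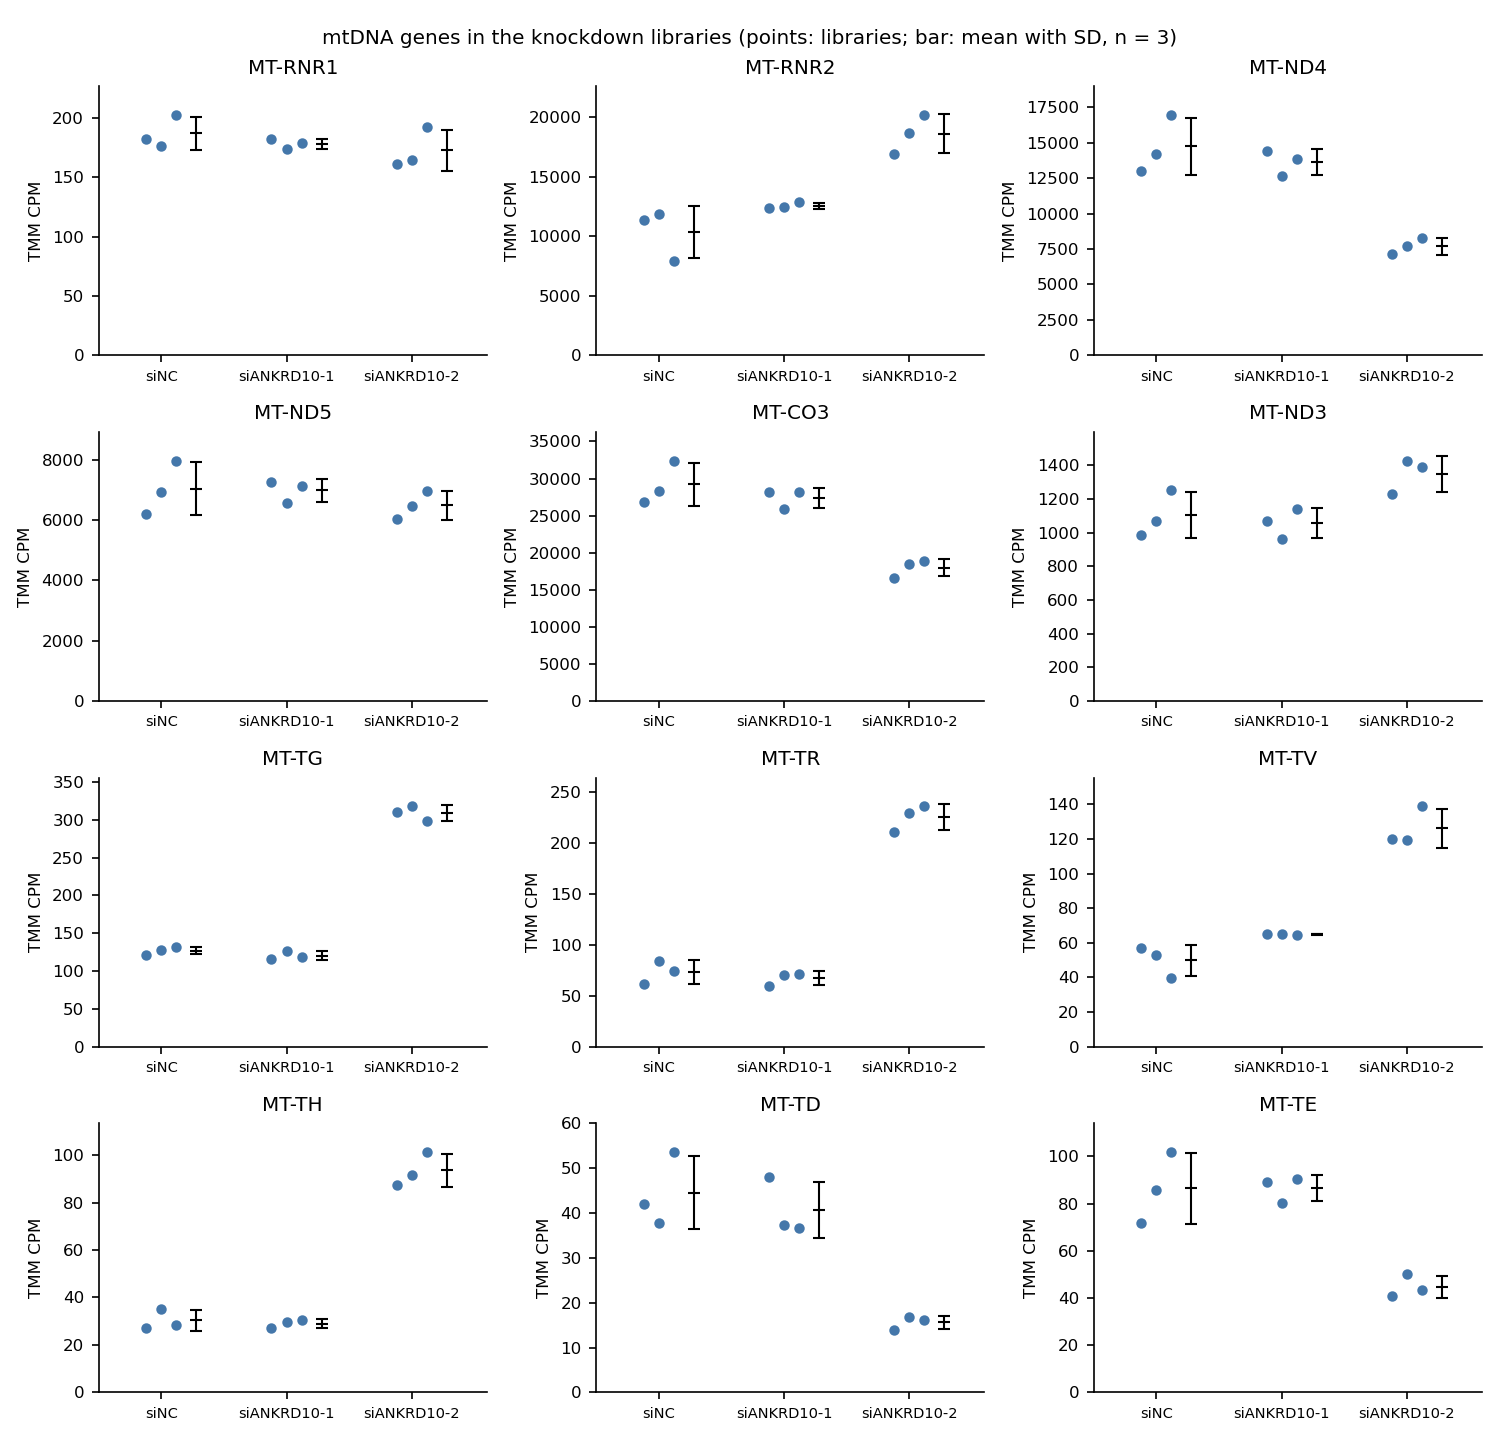
Points are the libraries of the knockdown table, with the mean and SD of each group (n = 3), for 12 mtDNA genes in CPM after TMM scaling, each axis starting at 0. The siANKRD10-2 libraries lie above the other 6 for MT-RNR2, MT-TG, MT-TR, MT-TV and MT-TH, below them for MT-ND4, MT-CO3, MT-TD and MT-TE, and within their range or overlapping it for MT-RNR1, MT-ND5 and MT-ND3.

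MT-RNR2 was lower in both RBPMS-KO groups, and most protein-coding mtDNA genes were lower in KO2. In KO2 against WT2, 15 members passed (40.5%), a share near the 38.5% of all genes tested that passed. Of the 15, 14 were lower, with 19.2% of all genes called lower. The calls comprised both rRNA genes, 10 of 13 protein-coding genes and 3 tRNA genes, and the median log2 fold change of the 37 was -0.23, against -0.02 over all genes tested. MT-RNR1 fell from 1230, 1498 and 1163 CPM in WT2 to 845, 658 and 788 CPM in KO2 (-0.76 ± 0.09, edgeR adjusted p = 4.47e-05). MT-RNR2 fell from 8371, 8939 and 8429 CPM to 5857, 5784 and 6143 CPM (-0.53 ± 0.03, edgeR adjusted p = 5.43e-08). For both rRNAs the groups did not overlap. MT-ND6, the minus-strand gene, fell from 512, 496 and 507 CPM to 409, 381 and 391 CPM (-0.36 ± 0.03), and MT-CYB fell from 3568, 3335 and 3333 CPM to 2474, 2641 and 2870 CPM (-0.36 ± 0.05). The other 8 protein-coding genes called changed by -0.27 (MT-ATP8) to -0.17 (MT-ATP6), and MT-CO1, MT-ND1 and MT-ND2 did not pass. Of the tRNA genes with most counts, MT-TL1 (leucine, UUR codons) fell by 0.24 ± 0.05, MT-TY by 0.26 ± 0.09, and MT-TS1 (serine, UCN codons) was higher by 0.45 ± 0.16 with overlapping groups, at 96.6, 61.9 and 54.2 CPM in WT2 and 95.6, 89.9 and 105.3 CPM in KO2. The call of MT-TS1 was lost under 10 alternative settings and that of MT-TY under 6, and 9 of the 15 calls were kept under every alternative tried.

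In KO1 against WT1, 2 members passed, with 36.1% of all genes tested called. MT-RNR2 fell from 7980, 8755 and 9506 CPM to 6118, 7663 and 7069 CPM (-0.33 ± 0.08, edgeR adjusted p = 0.0074), and MT-ND6 rose from 501, 443 and 448 CPM to 544, 563 and 538 CPM (0.24 ± 0.05, edgeR adjusted p = 0.00468). The groups did not overlap for either gene. MT-RNR1 was at 1222, 2111 and 1667 CPM in KO1, a wider spread than the 1484 to 1702 CPM of WT1, and did not pass (0.08 ± 0.15), with the sign turned, at -0.13, without the 2nd KO1 library. The other 12 protein-coding genes differed by -0.11 (MT-CO1) to 0.17 (MT-ND3) and did not pass. Whether the changes in KO1 and KO2 differed was tested as the KO1 change minus the KO2 change. This passed for 8 members, all positive, with 23.3% of all genes called and 11.2% positive. They were MT-RNR1 (0.84 ± 0.21), MT-ND6 (0.60 ± 0.06), MT-CYB, MT-ATP8, MT-ND3, MT-ND4L, MT-ND5 and MT-TL1. The difference was not called for MT-RNR2 (0.20 ± 0.10), which was lower in both knockouts. Between WT2 and WT1 none of the 37 genes passed with edgeR, 4 had an unadjusted p under 0.05 and 1 passed with DESeq2, while 1.23% of all genes passed.

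**Figure D5:**
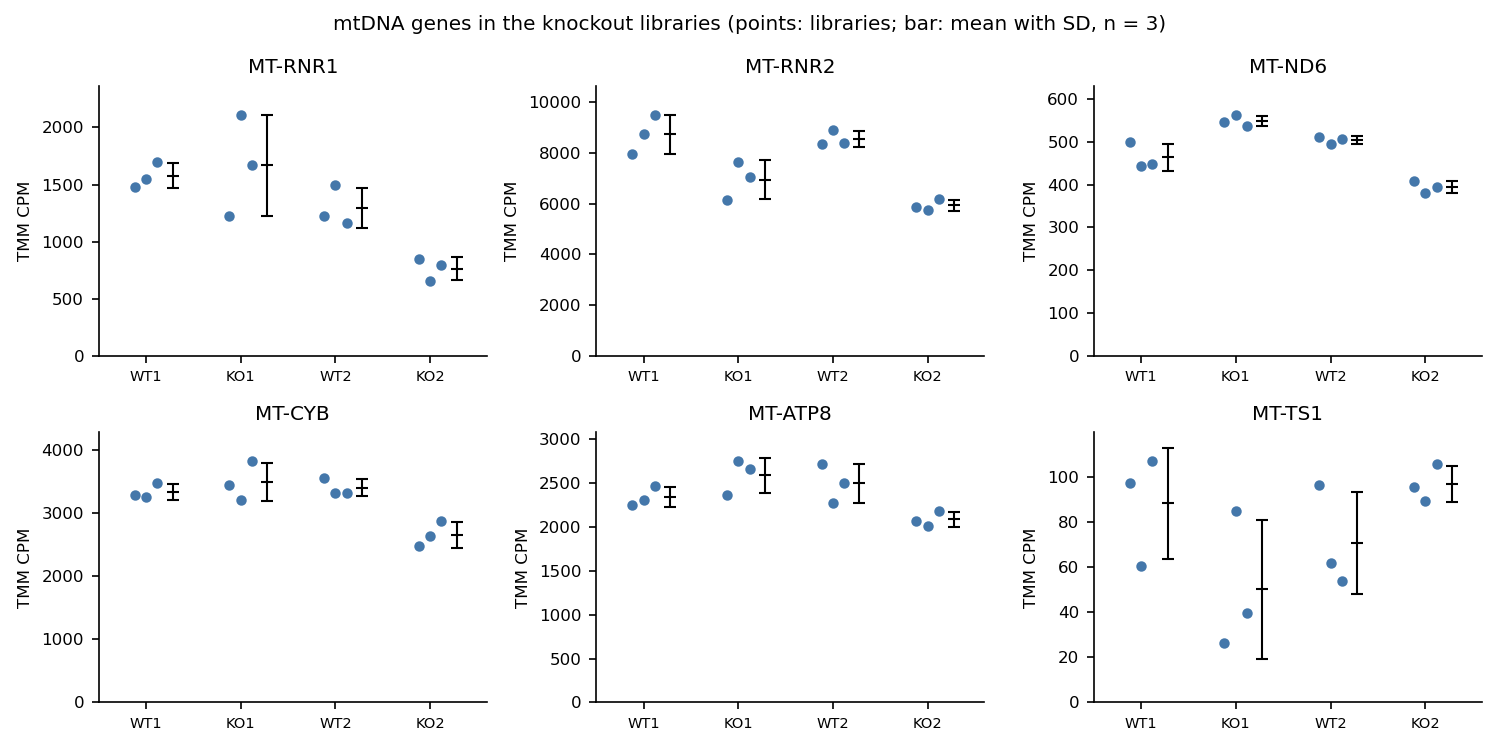
Points are the libraries of the knockout table, with the mean and SD of each group (n = 3), for 6 mtDNA genes in CPM after TMM scaling, each axis starting at 0. MT-RNR2 lies lower in KO1 and KO2 than in WT1 and WT2, MT-RNR1, MT-CYB and MT-ATP8 lie lowest in KO2, and MT-ND6 lies highest in KO1 and lowest in KO2.

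Overexpression of ANKRD10-1 was not accompanied by a called change of any member. None of the 37 genes passed with edgeR or DESeq2, 1 (MT-TF) had an unadjusted p under 0.05, and 6.31% of all genes passed. In ANKRD10-2 against Vector, 15 members passed, all lower, with 19.9% of all genes called and 9.25% lower. They comprised 7 protein-coding genes, 8 tRNA genes and neither rRNA. MT-CO3 fell from 8513, 8545 and 8644 CPM in Vector to 7197, 7345 and 6885 CPM in ANKRD10-2 (-0.26 ± 0.04, edgeR adjusted p = 0.000814), and MT-CYB fell from 1101, 1056 and 1074 CPM to 958, 907 and 881 CPM (-0.23 ± 0.05). MT-CO2 (-0.23 ± 0.04), MT-ND3 (-0.22 ± 0.05), MT-ATP8 (-0.21 ± 0.07), MT-ATP6 (-0.18 ± 0.05) and MT-CO1 (-0.16 ± 0.04) were lower to a similar extent. The 8 tRNA genes changed by -0.61 (MT-TI) to -0.28 (MT-TL2). MT-RNR2, at 25894, 27255 and 25508 CPM in Vector and 25696, 27348 and 27020 CPM in ANKRD10-2, did not pass (0.03 ± 0.05), and its sign turned, to -0.05, with scaling by total counts. The minus-strand genes with most tRNA counts did not pass. MT-TC was at 534, 525 and 410 CPM in Vector and 242, 449 and 528 CPM in ANKRD10-2, with the 1st ANKRD10-2 library low, as it was for MT-TY (473, 463 and 366 CPM against 217, 398 and 464 CPM) and MT-TN (419, 405 and 329 CPM against 205, 358 and 415 CPM). Of the 15 calls 6 were kept under every alternative tried, and without the 1st Vector library 8 members were called. In ANKRD10-2 against ANKRD10-1, 12 members passed, all lower, with 7.26% of all genes called and 3.1% lower, led by MT-TI (-0.60 ± 0.12) and MT-TW (-0.51 ± 0.07), and including MT-CYB (-0.26 ± 0.06), MT-CO3 (-0.24 ± 0.05), MT-CO2 (-0.20 ± 0.06) and MT-ATP6 (-0.19 ± 0.05). Without the 1st ANKRD10-1 library 6 were called, and without the 2nd 7 were called.

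Nuclear genes that maintain and express mtDNA and that passed the test were found in each comparison with a control group. Of 66 such genes listed, 37 were higher (56.1%) and 2 lower (3.03%) in KO1, where 17.9% of all genes were higher and 18.2% lower. In KO2 26 were higher (39.4%) and 9 lower (13.6%), with 19.3% of all genes higher and 19.2% lower. The medians of the list were 0.23 and 0.08, and those over all genes -0.0020 and -0.02. SLIRP, which with LRPPRC stabilises mitochondrial mRNAs, rose in both (0.69 ± 0.09 in KO1 and 0.46 ± 0.08 in KO2), as did PUS1, a pseudouridine synthase (0.82 ± 0.08 and 0.55 ± 0.10). PPARGC1A, a coactivator of mitochondrial biogenesis, rose in KO1 (1.13 ± 0.26) at a low level, with means of 1.42 CPM in WT1 and 3.10 CPM in KO1. TSFM, the mitochondrial elongation factor Ts, rose in KO2 (0.51 ± 0.10). POLRMT, the mitochondrial RNA polymerase, singled out after its values were seen, was lower in KO1 (-0.37 ± 0.07) and higher in KO2 (0.32 ± 0.06). In siANKRD10-2, 7 of 65 tested were higher (10.8%) and 22 lower (33.8%), with a median of -0.11, against 17.6% of all genes higher and 18.7% lower. PPARGC1B, another coactivator of this family (-0.95 ± 0.12), MTO1, which modifies mitochondrial tRNAs (-0.64 ± 0.11), and RRM2B, a ribonucleotide reductase subunit (-0.50 ± 0.09), fell. TFAM, which packages mtDNA and starts its transcription, was lower (-0.47 ± 0.06) while POLRMT was higher (0.37 ± 0.07), both again chosen after their values were seen. In siANKRD10-1, 4 were higher (6.15%) and 2 lower (3.08%), near the 5.08% and 5.52% of all genes, with PPARGC1B lower (-0.77 ± 0.14) and HSD17B10, a subunit of mitochondrial RNase P (0.30 ± 0.07), and TUFM, the elongation factor Tu (0.27 ± 0.05), higher. In ANKRD10-1, 7 were higher (10.8%) and 1 lower (1.54%), with 3.5% of all genes higher and 2.81% lower. In ANKRD10-2, 9 were higher (13.8%) and 3 lower (4.62%), with 10.7% and 9.25% of all genes. PNPT1, the mitochondrial polynucleotide phosphorylase that degrades RNA, fell in both (-0.69 ± 0.07 and -0.64 ± 0.07), and TFB2M, a transcription initiation factor, rose in both (0.38 ± 0.08 and 0.44 ± 0.12). PUS1 rose in ANKRD10-1 (0.34 ± 0.09) and MTERF4, a factor of mitoribosome assembly, fell in ANKRD10-2 (-0.46 ± 0.06). These comparisons share the Vector or the siNC libraries within a table.

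The nuclear genes listed for complexes I, III and IV and ATP synthase, which the mtDNA products are part of, were described by counts only. The ATP synthase list includes ATP5IF1, an inhibitor of the enzyme and not a subunit. Of 75 genes tested in each table, 37 were lower (49.3%) and 8 higher (10.7%) in siANKRD10-2 (median -0.17). There 18.7% of all genes were lower and 17.6% higher, and 11 of 13 protein-coding mtDNA genes were lower. In KO2 19 were higher (25.3%) and 4 lower (5.33%), with a list median of 0.05, against 19.3% and 19.2% of all genes. There 10 of 13 protein-coding mtDNA genes were lower and none higher. In KO1 24 were higher (32.0%) and 7 lower (9.33%), with a list median of 0.12, against 17.9% and 18.2% of all genes. In ANKRD10-2 12 were higher (16.0%, median 0.09), against 10.7% of all genes, and in siANKRD10-1 9 were higher (12.0%), against 5.08% of all genes. In ANKRD10-1 4 were higher (5.33%), a share near the 3.5% of all genes. None was lower in these 3 comparisons. Of the 18 ATP synthase genes listed, 11 were lower and 1 higher in siANKRD10-2, 8 were higher in KO1 and 7 in KO2. The other complexes differed from this. Of 11 complex IV genes, 6 were lower and 2 higher in siANKRD10-2, 1 was lower and 0 higher in KO1, and 1 lower and 1 higher in KO2. Of 37 complex I genes, 16 were lower and 5 higher in siANKRD10-2, 4 lower and 12 higher in KO1, and 3 lower and 9 higher in KO2. Of 9 complex III genes, 4 were lower and 0 higher in siANKRD10-2, 2 lower and 4 higher in KO1, and 0 lower and 2 higher in KO2.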

How the data were processed

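The authors deposited 3 tables of raw read counts per gene, without normalization, for poly(A)-selected libraries. Per the labels and methods, reads were trimmed (Cutadapt, Trimmomatic 0.36) and aligned to GRCh38 with HISAT2. The submitters' processing notes name featureCounts of Subread 1.5.1, the paper names StringTie. Strand setting and handling of reads over adjoining genes are not given in the sources used here. The tables were analysed separately.

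Samples were grouped by label. Each comparison was fitted on the libraries of its own groups. Low genes were dropped with edgeR 4.0.16 (filterByExpr, minimum count 10, minimum total 15), and the rest were scaled by TMM and tested by the quasi-likelihood F test with Benjamini-Hochberg adjustment over all genes (R 4.3.3, prior count 0.125, threshold 0.05). SE is the log2 fold change divided by the root of F. The difference between the knockouts was fitted over all libraries of the table. Shares and rRNA to mRNA ratios used raw totals and exact permutation tests (Python). Fits were tested on simulated data with 200 changed genes. List genes absent by symbol were matched through unique RefSeq synonyms, 20 in each of the overexpression and knockdown tables. Same-numbered libraries did not deviate together (correlations of -0.0354 to 0.0819), and the numbers were not used as pairs.

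Named genes are all protein-coding and rRNA members, the 3 tRNA genes with most counts per table, and, from the lists of nuclear factors, the 3 largest changes per comparison with a control group (adjusted p under 0.05, mean of at least 50 normalized counts, no overlap). Members and lists were chosen with earlier results of these data known. Alternatives were DESeq2 1.42.0, total-count scaling, TMM without mtDNA genes, no filter, a replicate block, all libraries or all WT libraries in 1 fit, other denominators and leaving out each library.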

Additional observations from a re-analysis of the deposited data

Results flagged for a closer look

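The effects of the knockouts differed by test for 8 mtDNA genes (KO1 against WT1 minus KO2 against WT2, edgeR, adjusted p under 0.05), each with the more negative change in KO2. The log2 differences were 0.84 for MT-RNR1, 0.60 for MT-ND6, 0.42 for MT-CYB, 0.41 for MT-ATP8, 0.40 for MT-ND3, 0.33 for MT-ND4L, 0.27 for MT-ND5 and 0.27 for MT-TL1. MT-ND6 was the only one of them called in opposite directions, higher in KO1 and lower in KO2. The difference was kept under every alternative for 5 of the 8, and lost under 1 or more for MT-ND3, MT-ND5 and MT-TL1. The study's discussion describes the knockout populations as grown by single-clone expansion, so that clone and sgRNA cannot be told apart.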

How the results depend on the processing

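No gene called in a comparison changed sign under any alternative, and 82 of 113 calls were kept under all. Called genes by no filter, the replicate block and all libraries in 1 fit were 11, 8 and 7 for siANKRD10-1 (3 in the fit reported). The replicate block gave 5 for KO1 (2 reported) and no other count beyond 1.5 times. Same-numbered libraries correlated at no more than 0.0819 in their deviations, so the numbers were not treated as pairs. DESeq2 called 1 gene between WT2 and WT1, and no filter gave 19 for ANKRD10-2 against ANKRD10-1. With protein-coding genes only, the change in share was -0.878 points in KO2, -0.723 in ANKRD10-2, -3.90 in siANKRD10-2 and 0.0349, turned in sign from -0.0126, between WT2 and WT1. Leaving out 1 library, the called genes ranged from 2 to 4 in KO1 (4 without KO1 replicate 1 or 2), 0 to 1 in ANKRD10-1, 8 to 14 in ANKRD10-2 against Vector, 1 to 6 in siANKRD10-1 (1 without its replicate 1, 6 without siNC replicate 3), 0 to 1 between WT2 and WT1, 6 to 13 in ANKRD10-2 against ANKRD10-1 and 5 to 10 in the difference between the knockouts (5 without KO1 replicate 3, WT2 replicate 3 or KO2 replicate 1). The share difference then ranged from -0.635 to 0.276 points in siANKRD10-1 and -0.140 to 0.158 between WT2 and WT1, the log2 ratio difference from -0.013 to 0.0724 in ANKRD10-1, and MT-RNR1 in KO1 from -0.13 to 0.26. The cause was not tested. MT-RNR2 in ANKRD10-2 turned to -0.0538 with scaling by total counts. In the knockout table many tRNA genes held under 5 CPM, with SEs up to 0.32 on the log2 scale between 2 groups and 0.44 in the difference between the knockouts, and small changes were not detectable there.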
